A study of Mus musculus with 60 samples.

Results

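Among 60 pools of fetal mouse brain RNA, 21 had a high signal of growth hormone (Gh) and 39 had a low one. The pools were chosen by a measured value, their own Gh signal: a pool was Gh-high where the log2 signal of the 1 row with the single symbol Gh was 8.5 or more, and Gh-low where it was below 8.5. Both sets were then compared over all other genes. They are ranges of a measured value and not groups of the study, so the Gh signal of the 2 sets is described here and not tested.

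Dams on a B6.129 background were wild type (WT), PON1-knockout (KO), or carried the human PON1 transgene tgHuPON1Q192 (Q-tg) or tgHuPON1R192 (R-tg). PON1, paraoxonase 1, is an enzyme of blood that breaks down CPO, chlorpyrifos oxon, which the body makes from the insecticide chlorpyrifos. Dams were exposed to CPO on 12 days, gestational days 6 to 17. KO dams had 0, 0.50 or 0.75 mg/kg/d and dams of the other genotypes 0, 0.75 or 0.85 mg/kg/d. Fetal brains were taken on gestational day 18, and the RNA of the fetuses of 1 dam was combined for 1 Affymetrix Mouse Gene 1.0 ST array, so the dam is the replicate. There were 12 labelled groups of 5 arrays. A value is thus a mean over littermates, and a pool can mix fetuses that differ. Whether the PON1 transgenic mice keep mouse Pon1, and which promoter drives the transgene, is not given in the sources used here.

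Growth hormone is made by somatotroph cells of the anterior pituitary, a gland that hangs from the base of the brain by a stalk. It arises from oral ectoderm (Rathke's pouch) and not from the neural tube. Other cells of the gland make the remaining hormones: corticotrophs process the Pomc product into ACTH, while thyrotrophs and gonadotrophs use the shared alpha subunit Cga with a beta subunit (Tshb, Lhb or Fshb). Lactotrophs make prolactin (Prl). Pomc is also transcribed in neurons of the arcuate nucleus of the hypothalamus.

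In the Gh-high pools 2 further pituitary hormone genes rose, Pomc and Cga, and of 21788 rows tested no other passed. The promoters of these 2 genes and of Tshb, the next gene in order of p, are shown because these 3 genes had the smallest p of all rows. Each is the 250 bases before the start of the gene in RefSeq, build GRCm38.p6, 5′ to 3′ on the strand of the gene, and capitals mark TATAAA on either strand and TGATGTCA, a variant of the cAMP response element. They lie at chr12:3954695-3954944 on the plus strand (Pomc), chr4:34893529-34893778 on the plus strand (Cga) and chr3:102782715-102782964 on the minus strand (Tshb).
Pomc: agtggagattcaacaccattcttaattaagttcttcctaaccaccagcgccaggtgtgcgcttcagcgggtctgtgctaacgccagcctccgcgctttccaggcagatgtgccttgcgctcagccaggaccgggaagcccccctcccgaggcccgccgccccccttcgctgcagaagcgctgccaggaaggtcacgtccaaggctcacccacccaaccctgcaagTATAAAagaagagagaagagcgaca
Cga: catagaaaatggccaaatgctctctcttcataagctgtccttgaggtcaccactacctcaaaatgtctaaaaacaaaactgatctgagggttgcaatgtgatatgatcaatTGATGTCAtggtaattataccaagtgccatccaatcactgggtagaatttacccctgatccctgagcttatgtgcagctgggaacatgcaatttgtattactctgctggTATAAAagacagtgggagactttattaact
Tshb: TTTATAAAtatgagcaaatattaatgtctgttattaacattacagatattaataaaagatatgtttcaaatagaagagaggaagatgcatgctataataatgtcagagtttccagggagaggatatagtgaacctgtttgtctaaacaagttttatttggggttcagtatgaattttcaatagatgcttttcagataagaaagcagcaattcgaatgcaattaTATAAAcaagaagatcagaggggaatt
All 3 hold TATAAA close to the start, 25 to 20 bases before it in Pomc, 30 to 25 in Cga and 27 to 22 in Tshb. Tshb holds it again at 248 to 243 bases before the start, where it overlaps a copy on the other strand at 250 to 245. TGATGTCA was found in Cga alone, at 139 to 132 bases before the start. Of 32851 promoter windows of this length, 12.4% hold TATAAA and 2.93% hold TGATGTCA on either strand. GGATTA (6.25% of windows), TGACGTCA (1.55%) and ATGNATA (7.92%) were searched on both strands and are not in these 3 windows. The matches describe letters and were not tested as sites.

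The 60 arrays resembled each other closely. Pairwise correlations over the rows ran from 0.986 to 0.998, array medians from 7.38 to 7.47, and no 2 arrays were identical. Pon1, the gene deleted in KO, had a log2 signal of 4.84 to 5.67 in 15 arrays and 9.72 to 10.14 in 45. Of 15 arrays labelled KO, 5 had the high level, and of 45 with other labels, 5 had the low one. Genotypes and doses below are therefore those of the labels, and every direction between genotypes or doses is one between labels. Of these 10 arrays, 4 were Gh-high. Precision is limited by the number of arrays.

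The Gh signal had a gap at the threshold and a further gap within the Gh-low set. In the 21 Gh-high arrays the lowest log2 signal was 8.84, the median 9.78 and the highest 10.73 (mean 9.76 ± 0.52, SD). In the 39 Gh-low arrays the lowest was 6.42, the median 6.83 and the highest 8.12 (mean 6.90 ± 0.34). The means differed by 2.86 on the log2 scale, a 7.27-fold difference that follows from how the sets were chosen. Just inside the threshold were Q-tg replicate 1 at dose 0 (8.84), R-tg replicate 5 at dose 0 (8.97) and R-tg replicate 4 at dose 0 (9.03). Just outside it were KO replicate 4 at 0.50 mg/kg/d (8.12), WT replicate 2 at 0.75 (8.11) and WT replicate 5 at 0.85 (7.41). Nothing lay in the 0.72 log2 units from 8.12 to 8.84. Nothing lay from 7.41 to 8.11 either, so the 2 Gh-low arrays above 8 stood apart from the other 37 Gh-low arrays too. Of the Gh-low arrays, 2 had a Gh signal at or below 6.54, the 95th percentile of 1035 olfactory receptor rows, used here as the level of dim rows because brain makes little olfactory receptor RNA.

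**Figure D1:**
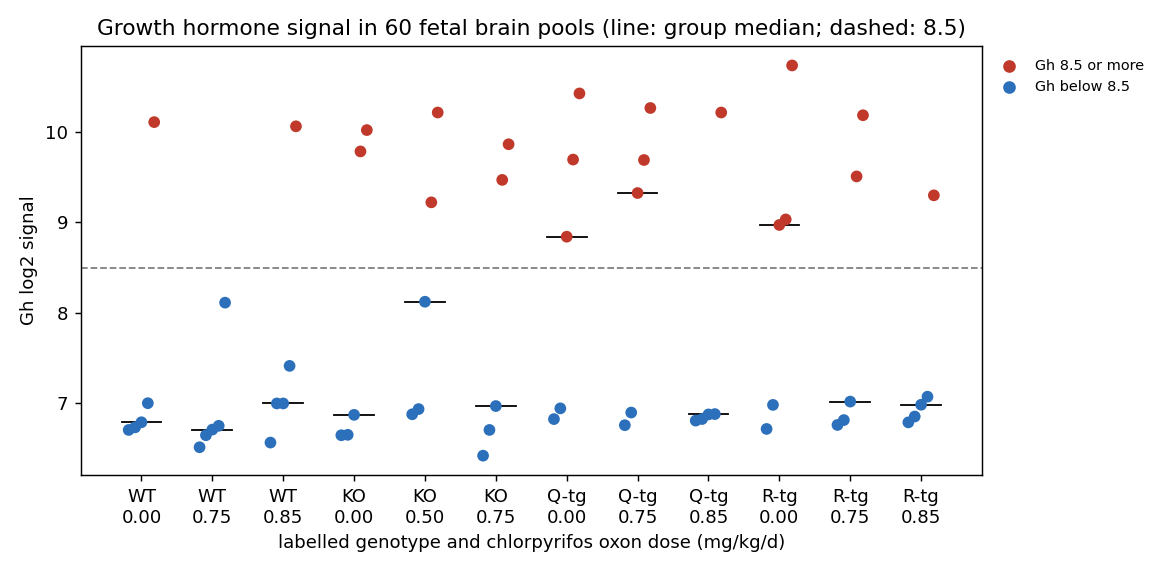
Log2 signal of Gh in each of the 60 arrays (1 point per dam), by labelled genotype and CPO dose in mg/kg/d; short lines are group medians and the dashed line is the threshold of 8.5. The 21 Gh-high arrays are spread over 11 of the 12 labelled groups, and the 2 Gh-low arrays nearest the threshold lie at 8.12 and 8.11.

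Gh-high arrays occurred in every labelled genotype. Labelled WT had 2 of 15, replicate 4 at dose 0 (10.11) and replicate 1 at 0.85 (10.06). Labelled KO had 6 of 15: replicates 2 (10.02) and 5 (9.78) at dose 0, 2 (10.21) and 5 (9.22) at 0.50, and 2 (9.47) and 3 (9.86) at 0.75. Labelled Q-tg had 7 of 15: replicates 1 (8.84), 3 (10.43) and 5 (9.69) at dose 0, 2 (9.32), 3 (10.26) and 5 (9.69) at 0.75, and 1 (10.21) at 0.85. Labelled R-tg had 6 of 15: replicates 1 (10.73), 4 (9.03) and 5 (8.97) at dose 0, 2 (9.51) and 3 (10.18) at 0.75, and 2 (9.30) at 0.85. The labelled group WT at 0.75 had none of 5, and no group had more than 3 of 5, so most groups mixed both kinds of pool.

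The share of Gh-high arrays did not differ detectably by dose or by label. It was 9 of 20 at dose 0 and 12 of 40 at doses above 0 (two-sided Fisher's exact test, p = 0.268, adjusted over 3 tests p = 0.416). By dose above 0 it was 2 of 5 at 0.50, 7 of 20 at 0.75 and 3 of 15 at 0.85 mg/kg/d. Over the 4 labelled genotypes a permutation test of the chi-square statistic with 100000 resamples gave p = 0.277 (adjusted p = 0.416), and over the 12 groups p = 0.746. Without the 10 arrays whose Pon1 level went against the label these p-values were 0.353, 0.395 and 0.323 by the same exact and permutation tests. By Pon1 level instead of label, 8 of 15 low arrays and 13 of 45 high arrays were Gh-high, which was not tested.

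The comparison of Gh-high with Gh-low pools asks which other RNAs vary together with growth hormone in these brain pools. By limma with Benjamini-Hochberg adjustment over 21788 rows, 2 rows were higher in the Gh-high arrays (0.00918% of those tested) and 0 were lower (0%). Without adjustment 994 rows had a p under 0.05, 647 higher and 347 lower, where 1089 are expected by chance alone. The median log2 difference over all rows was 0.002, the median SE 0.03, and 9 rows differed by more than 0.2 in either direction. No row separated the 2 sets of arrays without overlap (0 of 21788, 0%). In such bulk pools fewer cells of a type and less RNA per cell cannot be told apart, and Gh, Pomc and Cga of 1 array share its RNA pool, labelling and hybridisation.

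Pomc, the precursor gene of ACTH and other melanocortin peptides, rose 1.27-fold. Its log2 signal ran from 6.78 over a median of 7.13 to 7.40 in the 21 Gh-high arrays (mean 7.11 ± 0.13, SD) and from 6.53 over 6.76 to 7.09 in the 39 Gh-low arrays (mean 6.77 ± 0.12). The ranges overlapped, but 15 Gh-high arrays lay above every Gh-low array and 24 Gh-low arrays below every Gh-high one. The log2 difference was 0.35 (SE 0.03, 95% interval 0.28 to 0.42; limma adjusted p = 9.97e-11). All 21 Gh-high arrays were above the mean of the Gh-low arrays. The Gh-high array with the lowest Pomc was R-tg replicate 2 at 0.75 (6.78), with Gh at 9.51, and the Gh-low array with the highest was KO replicate 5 at 0.75 (7.09), with Gh at 6.97.

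Cga, the alpha subunit shared by TSH, LH and FSH, rose 1.43-fold. It ran from 6.62 over a median of 7.01 to 7.90 in the Gh-high arrays (mean 7.04 ± 0.28, SD, n = 21) and from 6.12 over 6.50 to 6.84 in the Gh-low arrays (mean 6.52 ± 0.16, n = 39). Of the Gh-high arrays 18 lay above every Gh-low array, and 28 Gh-low arrays lay below every Gh-high one. The log2 difference was 0.52 (SE 0.06, 95% interval 0.41 to 0.63; limma adjusted p = 1.41e-09). In 21 of the Gh-low arrays Cga was at or below the dim level of 6.54, against 0 of the Gh-high arrays, so the fold is that of the measured signals and may understate the difference in RNA. The highest Cga, 7.90, belonged to Q-tg replicate 3 at 0.75, whose Gh of 10.26 was the third highest.

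Of the beta subunits, Tshb was nearest to the threshold and did not pass. Its log2 signal was dim, 5.23 to 5.76 (median 5.34) in the Gh-high arrays and 4.81 to 5.54 (median 5.22) in the Gh-low arrays, with 4 Gh-high arrays above every Gh-low one. The log2 difference was 0.21 (SE 0.04, 95% interval 0.13 to 0.30; limma adjusted p = 0.0582). It passed in 5 of 20 alternative fits, among them the one with the lower quartile of each array as covariate (limma adjusted p = 0.00562, with 0.00562 to 0.9999 over all of them). It also passed when any 1 of 14 arrays was left out. All 21 Gh-high arrays were above the Gh-low mean of 5.19.

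The other 3 measured hormone genes had closely similar means in both sets. For Lhb, the beta subunit of LH, the means were 7.34 ± 0.18 and 7.36 ± 0.21 (SD; n = 21 and 39), and the 95% interval of the log2 difference was -0.12 to 0.09. For Fshb, the beta subunit of FSH, they were 5.97 ± 0.10 and 6.00 ± 0.19, with an interval of -0.12 to 0.06. For Prl they were 5.38 ± 0.17 and 5.36 ± 0.21, with an interval of -0.08 to 0.12. Fshb and Prl lay in the dim range, so a difference in them may not be measurable on these arrays. Of the 6 hormone genes besides Gh, 2 rose and 0 fell, where 0.00918% of all rows rose and 0% fell. Their median log2 difference was 0.117 against 0.002 for all rows. The list was chosen with earlier results of these data known, so its count and median only describe it.

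**Figure D2:**
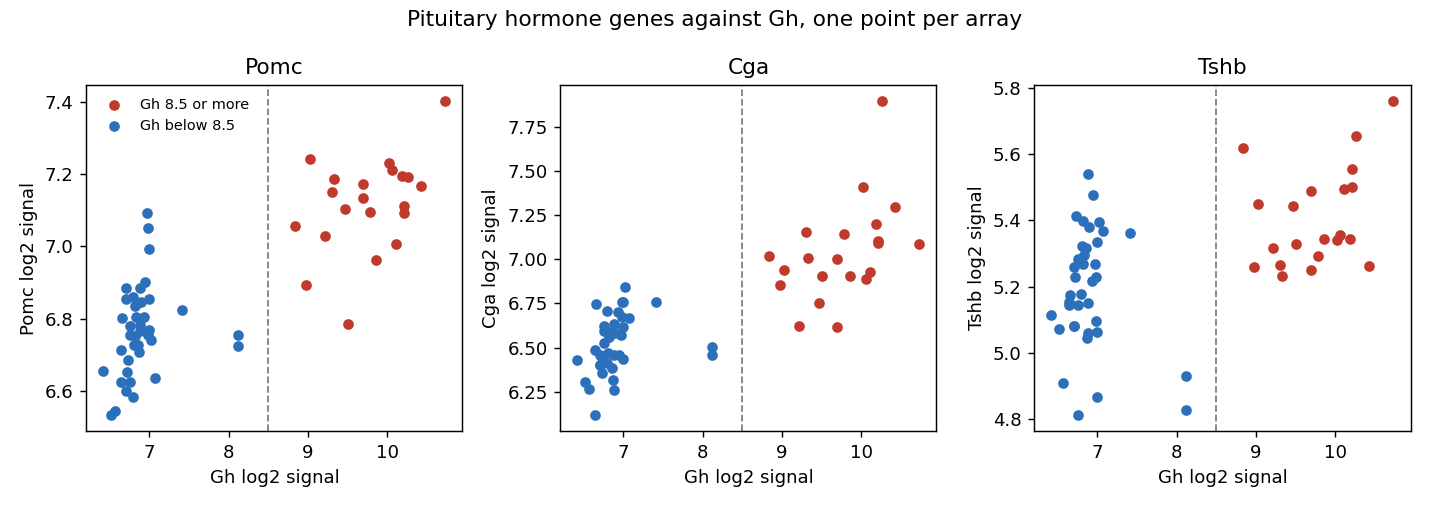
Log2 signals of Pomc, Cga and Tshb (vertical axes) against that of Gh (horizontal axis), 1 point per array, red for 21 Gh-high and blue for 39 Gh-low arrays; the dashed line is the threshold of 8.5. Pomc and Cga step up in the Gh-high set with some overlap, Tshb overlaps more, and the 2 Gh-low arrays above 8 have all 3 genes at Gh-low levels.

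None of the 24 measured pituitary lineage factors and receptors passed (14 positive and 10 negative differences, median 0.003). The share over all rows was 0.00918%, so the count by itself says little of these genes. The largest difference was that of Tbx19, the T-box factor of corticotrophs and melanotrophs, with a log2 mean of 6.39 in the Gh-high and 6.28 in the Gh-low arrays (difference 0.11, SE 0.04; limma adjusted p = 0.978), both in the dim range. Pitx1, a homeobox factor of the oral ectoderm and pituitary, had 6.66 and 6.61 (difference 0.05, SE 0.04). Of other factors of early gland formation, the differences were -0.002 for Lhx3, -0.03 for Lhx4, -0.02 for Hesx1, 0.03 for Six6, 0.03 for Isl1, 0.03 for Eya1, 0.003 for Otx1, 0.004 for Sox2 and -0.02 for Sox3. For each of these genes the means of both sets lay within 0.04 log2 units of each other, and Hesx1 was dim.

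None of the genes of later cell types on this list passed either, which at a share of 0.00918% over all rows says little of them. The differences were 0.003 for Nr5a1 and 0.01 for Foxl2, factors of gonadotrophs, -0.009 for Gata2, 0.02 for Neurod4, -0.005 for Neurod1, -0.04 for Insm1 and 0.05 for Rxrg. That of the enzyme gene Cyp11a1 was -0.005. Among receptors through which the hypothalamus acts on the gland, the differences were 0.03 for Ghrhr, the receptor on somatotrophs for growth hormone releasing hormone, 0.04 for Trhr, -0.04 for Gnrhr, -0.02 for Crhr1 and 0.03 for the dopamine receptor gene Drd2. The 95% interval of Ghrhr was -0.05 to 0.11. Neurod4, Cyp11a1 and Gnrhr were dim, like Hesx1 and Tbx19, so a difference in them may not be measurable.

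**Figure D3:**
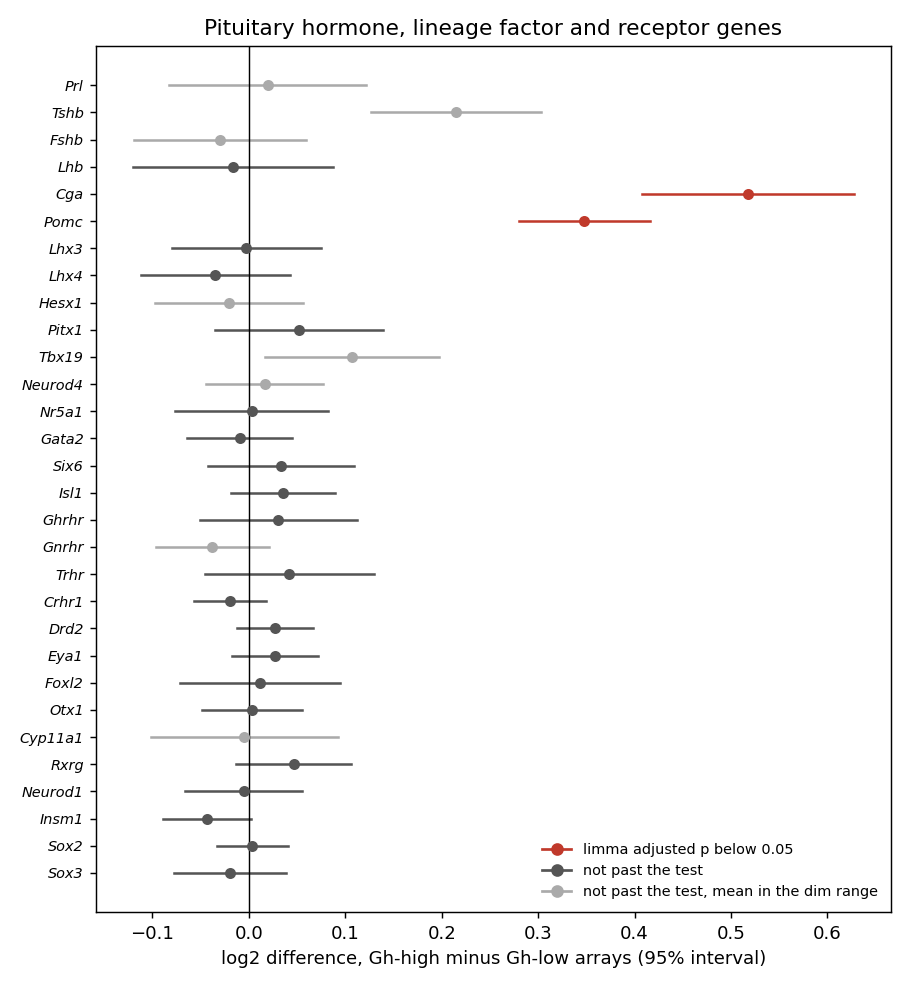
Log2 difference, Gh-high (n = 21) minus Gh-low (n = 39) arrays, with the 95% interval from limma for 6 pituitary hormone genes and 24 lineage factor and receptor genes; red marks an adjusted p below 0.05 and light grey a mean in the dim range. Cga and Pomc lie to the right at 0.52 and 0.35, Tshb at 0.21, and the other points between -0.04 and 0.11.

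Growth hormone acts through its receptor (Ghr), JAK2 and STAT5 on targets such as Igf1 and Socs2, and its release is driven by Ghrh and held back by somatostatin (Sst). Of 26 measured genes of this axis 13 differences were positive and 13 negative, and the median was -0.001. None passed, where the share over all rows was 0.00918%, so the count by itself says little of the axis. The 4 largest were those of the somatostatin receptors Sstr5 (-0.06, SE 0.03) and Sstr1 (0.04, SE 0.03), of Sst (0.04, SE 0.02) and of the binding protein gene Igfbp1 (-0.04, SE 0.04). Ghrh, the releasing hormone gene of the arcuate nucleus, had means of 7.13 and 7.12.

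The list of hypothalamic peptides and factors, which holds the neighbouring brain region, had 0 of 26 members past the test, with 19 positive differences and a median of 0.010. Over all rows 0.00918% passed, so a count of 0 says little for this list or the next. Of all differences 11405 were positive and 10383 negative. The 4 largest of the hypothalamic list were Nts, the neurotensin gene (0.12, SE 0.04), the zinc finger factor Fezf1 (0.06, SE 0.03), the neurokinin B gene Tac2 (0.05, SE 0.03) and Nkx2-1, a factor of the ventral forebrain (0.04, SE 0.03). Cartpt and Npy, peptide genes that the arcuate nucleus also expresses, had differences of -0.001 and 0.02. Genes of the secretory granule, which pituitary cells share with neurons, had 16 of 20 positive differences, a median of 0.020 and 0 past the test. The largest were Resp18 (0.07, SE 0.04), the granule membrane gene Ptprn (0.05, SE 0.03), the granule GTPase gene Rab3d (0.05, SE 0.03) and Scg5, which encodes the chaperone 7B2 (0.04, SE 0.01).

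Lists of tissues near the gland, or of others that could vary between dissections, gave 0 calls each, against a share of 0.00918% over all rows. Over all rows 11405 differences were positive and 10383 negative. Of 20 hindbrain and spinal cord genes 19 had a negative difference (median -0.059), led by Hoxa5 (-0.23, SE 0.18), Hoxb5 (-0.18, SE 0.10), the glycine transporter gene Slc6a5 (-0.16, SE 0.14) and Hoxa2 (-0.12, SE 0.08). Hoxa5 varied widely in both sets, from 5.78 to 7.97 (median 6.85) in the Gh-high and from 5.78 to 8.28 (median 7.15) in the Gh-low arrays. With Hoxa5 as covariate the log2 differences were 0.35 for Pomc and 0.50 for Cga, both still past the limma test (adjusted p = 1.19e-10 and 4.49e-09). Bone and cartilage genes had 15 of 18 negative differences (median -0.021), led by Omd (-0.11, SE 0.04), Mmp13 (-0.09, SE 0.07), Ibsp (-0.08, SE 0.14) and Dmp1 (-0.04, SE 0.04). Without WT replicate 2 at 0.75, an array with high bone and nasal genes that is described below, these were -0.09, -0.04, 0.02 and -0.03, and the list had 13 negative differences and a median of -0.011.

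Skin and oral epithelium genes (Rathke's pouch itself forms from oral ectoderm) had 9 positive and 11 negative differences (median -0.009). Epcam (0.06, SE 0.04) and Krt15 (-0.06, SE 0.05) came first, followed by Pitx1 (0.05) and Cldn6 (0.05). Meningeal genes had 9 positive and 8 negative differences (median 0.000), led by Col1a1 (-0.08, SE 0.07), Col1a2 (-0.06, SE 0.06), Ptgds (0.05, SE 0.02) and Crabp2 (0.04, SE 0.03). Without WT replicate 2 at 0.75, Col1a1 differed by -0.04 and Col1a2 by -0.02, while Ptgds and Crabp2 kept 0.05 and 0.04. Nasal and olfactory genes had 7 positive and 10 negative differences (median -0.014), led by Bpifb9b (-0.18, SE 0.21), Bpifa1 (-0.14, SE 0.12), Stoml3 (-0.10, SE 0.05) and Reg3g (-0.10, SE 0.10). Without that array the values were -0.02 for Bpifb9b, -0.06 for Bpifa1, -0.08 for Stoml3 and -0.03 for Reg3g, so most of the size in Bpifb9b, Bpifa1 and Reg3g came from 1 pool. Choroid plexus genes had 12 of 14 negative differences (median -0.012), led by Slc4a5 (-0.08, SE 0.03), Kcnj13 and Kcne2 (both -0.04) and Trpm3 (-0.03). Without WT replicate 2 at 0.75, 10 of the 14 were negative and the median was again -0.012.

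Medians of the lists of brain and blood cell types ran from -0.019 (erythroid, 8 genes) to 0.029 (GABA neurons, 14 genes, 12 positive). Between them lay microglia (0.012), astrocytes and radial glia (0.004), the oligodendrocyte lineage (-0.003), cortical neurons (0.015), monoamine neurons (0.003), vessels and pericytes (-0.001), the cell cycle (-0.008) and synapses (0.002). Skeletal muscle (0.016), retina and lens (-0.006), pineal gland (-0.012) and cranial sensory ganglia (-0.018) had medians in the same span. The largest single differences there were Agt among glial genes (0.10, SE 0.05), Alas2 among erythroid genes (-0.09, SE 0.05), Gabra2 among synapse genes (0.09, SE 0.09) and Bub1 among cell cycle genes (-0.09, SE 0.04). Of the 445 measured entries of all 27 lists, none other than Pomc and Cga passed, as over all 21788 rows.

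**Figure D4:**
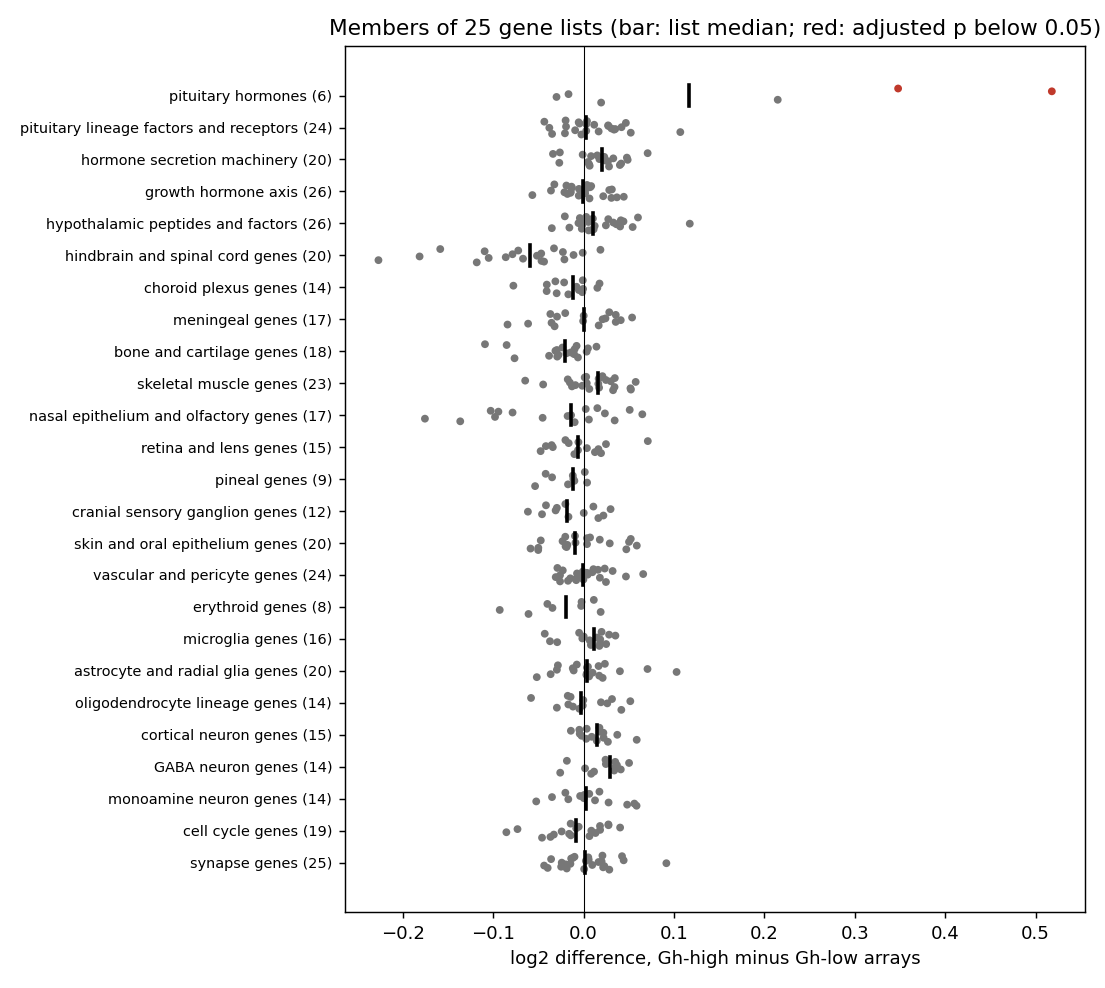
Log2 difference, Gh-high minus Gh-low arrays, for each measured member (points) of 25 gene lists (number of members in brackets); black bars are list medians and red marks limma adjusted p below 0.05. Pomc and Cga stand at the right in the hormone list, the hindbrain list lies mostly left of 0 with a median of -0.059, and the other medians lie between -0.021 and 0.029.

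The 2 differences of largest size did not pass and belonged to Pon1 and Xist, whose signals spread widely in both sets. Pon1 had a mean of 8.20 ± 2.33 (SD) in the Gh-high and 9.14 ± 1.79 in the Gh-low arrays (log2 difference -0.93, SE 0.52; limma adjusted p = 0.978). Xist, the RNA of the inactive X chromosome, had 10.93 ± 1.33 and 10.13 ± 2.49 (difference 0.80, SE 0.56), and Eif2s3y, a Y-linked gene, had 8.47 ± 1.43 and 8.29 ± 1.55. With the Pon1 class as covariate the differences were 0.35 for Pomc and 0.52 for Cga, and with Xist and Eif2s3y as covariates they were 0.35 and 0.52 too. Lower quartiles of the arrays, a measure of the signal distribution, were 6.09 ± 0.06 and 6.10 ± 0.08.

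Ranked by Spearman's rho with Gh over the 60 arrays, the rows most like Gh were Cga (0.81), Pomc (0.79) and Tshb (0.54). They were followed by Pym1 (0.54), 2310022B05Rik (0.54), Ccdc181 (0.53), Sars2 (0.53), Csf2ra (0.52), Pgls (0.52) and Unk (0.51). Since the Gh signal has gaps and is not spread evenly, rho serves here as a measure of likeness and not as a relation. From Pym1 to Unk the class differences were 0.05 to 0.07 log2 units, and none passed.

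To see whether the same genes rose at labelled dose 0, the comparison was repeated by labelled dose. These fits by dose were not repeated without the 10 arrays whose Pon1 level went against the label. At dose 0 (9 Gh-high, 11 Gh-low) 2 rows passed (0.00918%) and at doses above 0 (12 and 28) 2 rows passed (0.00918%), Pomc and Cga each time. The log2 difference of Pomc was 0.36 (SE 0.06) at dose 0 and 0.34 (SE 0.04) above 0 (limma adjusted p = 0.000912 and 3.13e-06). That of Cga was 0.56 (SE 0.09) and 0.49 (SE 0.07; limma adjusted p = 0.00121 and 3.85e-05). Tshb differed by 0.21 and 0.20, with neither past the test.

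The difference between these differences was tested for every row and 0 passed (0%; limma, 1301 rows at an unadjusted p under 0.05). It was -0.02 for Pomc (95% interval -0.16 to 0.12) and -0.07 for Cga (-0.30 to 0.17). The smallest p belonged to Sema3e, a semaphorin gene of axon and vessel guidance, with a class difference of 0.15 at dose 0 and -0.06 above it (limma adjusted p = 0.348). The next were Dnah3, Gpc5, Grid1, Sorcs1, Sptbn4, Hmcn1, Mical2, Slc20a2 and Washc3, with differences of -0.30 (Dnah3) to 0.14 (Washc3) and an adjusted p of 0.724. Dnah3 has 33 rows and Hmcn1 77, and the values named are those of 1 row each: the other rows of Dnah3 had a median of -0.01 and those of Hmcn1 a median of -0.09.

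Within each labelled genotype the means of Pomc and Cga were higher in the Gh-high pools too, with fewer arrays behind each value. The log2 difference of Pomc was 0.35 in WT (2 against 13 arrays), 0.32 in KO (6 against 9), 0.33 in Q-tg (7 against 8) and 0.37 in R-tg (6 against 9). That of Cga was 0.42, 0.50, 0.60 and 0.43 in the same order. Of these 8 values only that of Pomc in Q-tg passed by itself (limma adjusted p = 0.000243), and the differences among genotypes were not tested. Without the 10 arrays whose Pon1 level went against the label, the differences over all remaining arrays were 0.34 for Pomc and 0.47 for Cga (limma adjusted p = 5.06e-08 and 5.43e-06).

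Within the Gh-high arrays it was asked whether other genes follow the amount of Gh. No row passed (0 of 21788, 0%; limma, 4293 at an unadjusted p under 0.05). Cga had a slope of 0.25 log2 units per log2 unit of Gh (SE 0.10; limma adjusted p = 0.197), Pomc 0.11 (SE 0.05; 0.228) and Tshb 0.10 (SE 0.06; 0.311). The slopes with the smallest p were those of Hmcn1 (0.18), Calm4 (-0.18), Cort (-0.18), Cst13 (-0.24), Ust (0.16), Lysmd2 (0.19), Rsph6a (-0.19), Pla2g1b (-0.21), A3galt2 (-0.13) and Cd209a (-0.16), with adjusted p from 0.118 to 0.134. Hmcn1 has 77 rows, and those not named had a median slope of 0.04. In these arrays Gh also moved with the lower quartile of the array (Pearson's r = -0.484, permutation p = 0.0237, adjusted p = 0.211; Spearman's rho = -0.329, p = 0.145; r = -0.254 without the 2 arrays farthest from the median Gh). With the lower quartile as covariate 1826 rows had an unadjusted p under 0.05, 1 row passed, and the slopes were 0.34 for Cga, 0.13 for Pomc and 0.004 for Lhb, which had -0.14 without it. Pearson's r of Cga with Gh over the 21 arrays was 0.465 and Spearman's rho 0.516 (permutation p = 0.0301 and 0.0177, adjusted over 14 correlations p = 0.211 and 0.0495). Without the 2 arrays farthest from the median Gh, r was 0.543.

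The 2 Gh-low arrays above 8 differed from each other in genes of other tissues, which were picked out after their values had been seen. WT replicate 2 at 0.75 (Gh 8.11) had Col1a1, a collagen gene of bone and connective tissue, at 10.66, where the other 37 Gh-low arrays ran from 8.52 to 9.02. In it Ibsp, a bone matrix gene, stood at 9.69 (5.55 to 6.18 in the 37) and Bpifb9b, a gene of nasal glands and epithelium, at 10.32 (3.88 to 4.67). KO replicate 4 at 0.50 (Gh 8.12) had 8.93, 5.66 and 4.13 for these genes, within those ranges. Of the measured lists, 6 of 18 bone and cartilage genes, 8 of 17 nasal and olfactory genes and 5 of 20 skin and oral epithelium genes of the WT array lay above all of these 37 arrays, and the bone factor gene Sp7 (6.25) did not. In the WT array 6 of 17 meningeal genes and 4 of 16 microglia genes lay above the 37 too. In the KO array the bone, nasal and skin counts were 0, 0 and 0. There 9 of 25 synapse, 7 of 24 vessel and pericyte, 5 of 15 cortical neuron and 5 of 16 microglia genes lay above the 37. The share over all rows was not counted, so these counts do not show that either array was unusual. Neither array had hormone genes at Gh-high levels: Pomc was 6.76 and 6.73, Cga 6.46 and 6.50, and Tshb 4.83 and 4.93, in the same order. All 6 values lay within the ranges of the 37 other Gh-low arrays and below every Gh-high array.

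**Figure D5:**
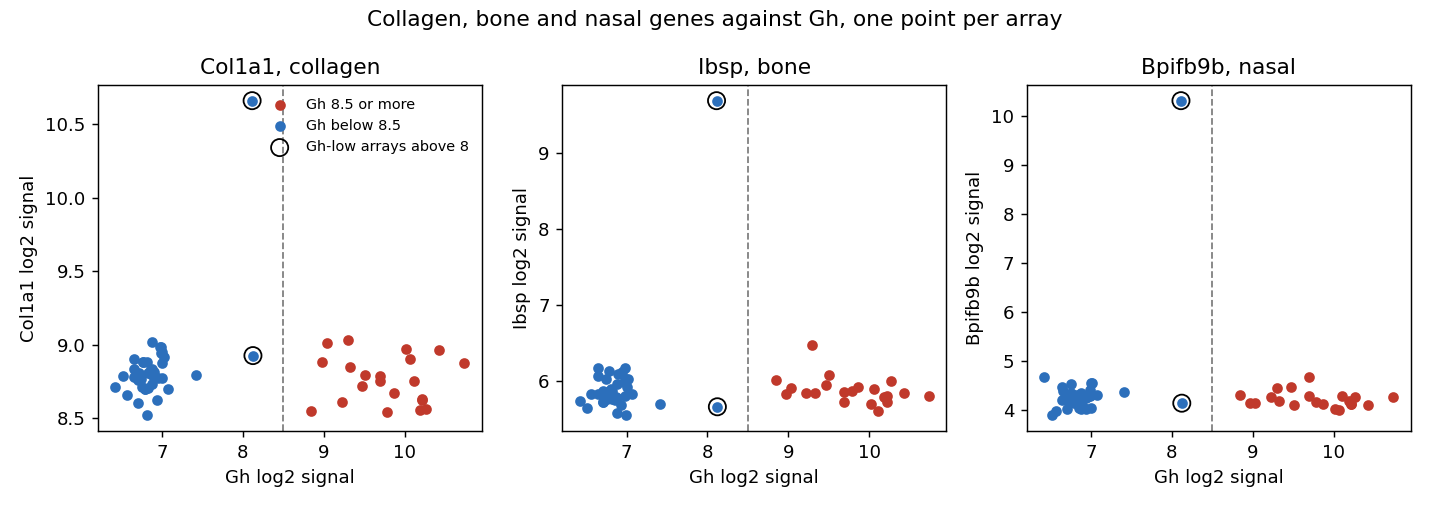
Log2 signals of Col1a1, Ibsp and Bpifb9b (vertical axes) against that of Gh (horizontal axis), 1 point per array, red for Gh-high and blue for Gh-low; circles mark the 2 Gh-low arrays above 8. WT replicate 2 at 0.75 stands apart at 10.66, 9.69 and 10.32, and KO replicate 4 at 0.50 lies with the other arrays in these 3 genes.

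Within the Gh-low arrays 29 rows followed Gh (0.133% of 21788; limma, all 29 with a positive slope), but the count depended on which arrays and covariates entered the fit. Those with the smallest p were Olfm5 (slope 0.90), Lmna (0.18), Col1a1 (0.61), Mmp9 (0.39) and Col1a2 (0.47), named after their values were seen. In WT replicate 2 at 0.75 Olfm5 was at 8.75 against 5.81 to 6.34 in the other 37. Lmna lay above those 37 (highest 7.59) both in that array (7.64) and in KO replicate 4 at 0.50 (7.63). In the KO array Olfm5, Col1a1, Mmp9 and Col1a2 lay within the ranges of the 37. Pomc, Cga and Tshb were not among the 29 rows (slopes 0.08, 0.11 and -0.11). By rank, Gh correlated over the 39 arrays with Cga (Spearman's rho 0.485, permutation p = 0.00201, adjusted over 14 correlations p = 0.0281), Pomc (0.431, adjusted p = 0.0416), Lhb (0.415, adjusted p = 0.0416) and the lower quartile of the array (0.392, adjusted p = 0.0495). Pearson's r for these was 0.236, 0.211, 0.129 and 0.0351, none past the threshold, and 0.556, 0.49, 0.564 and 0.607 without the 2 arrays farthest from the median Gh. Without the 2 arrays above 8 the count was 8216, with Gh and the lower quartile of an array moving together (Pearson's r = 0.607 over 37 arrays). In that fit Pomc and Cga passed (slopes 0.35 and 0.52; limma adjusted p = 0.00857 and 0.00239), as did Lhb and Fshb (0.66 and 0.50). With the lower quartile as covariate as well, 3 rows passed and the slopes were 0.07 for Pomc, 0.18 for Cga, 0.05 for Lhb and 0.02 for Fshb, none past the test.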

How the data were processed

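Affymetrix Mouse Gene 1.0 ST arrays measured RNA of 60 fetal brain pools. The deposited values are log2 signals; the submitters' processing notes name RMA and the oligo package under R 2.15.1 (the deposited session listing gives oligo 1.22.0). These values were used with no further normalization. Of 28858 rows, 21789 had 1 gene symbol in the platform annotation, 1621 had several and 5448 had none. The Gh row was left out and 21788 rows were tested.

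Arrays were split at a Gh log2 value of 8.5. The fits used limma 3.58.1 in R 4.3.3 (lmFit, eBayes, two-sided, Benjamini-Hochberg adjustment over 21788 rows, threshold 0.05): Gh class, Gh class by dose (0 or above), and slopes on Gh within a class. Fisher's exact test and permutations (100000 resamples) compared counts of arrays, and correlations had permutation p-values. The limma fit of Gh class was tested on simulated data.

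The members, the 27 gene lists (497 entries, 445 measured) and the tests were chosen with earlier results of these data known. Named are all members of both pituitary lists, rows past the threshold, the 4 largest differences of other lists that are described, the 10 smallest p of the Gh-high slope and of the dose difference, and the 10 rows most like Gh. Symbols of predicted and small RNA genes gave way in the ranks by p. Any other gene was chosen after its values were seen. Arrays were not paired by replicate number in the main fits. The median correlation of deviations was -0.015 between arrays of the same number and 0.00938 between others. These medians describe whole arrays and cannot show whether single genes go with the number. The alternatives were covariates (labelled group, replicate number, lower quartile, Xist and Eif2s3y, Hoxa5, Pon1 class), subsets of arrays and rows, centring, array weights, another variance prior, and each array left out. Promoters came from RefSeq (GRCm38.p6). Scanner values were not used here.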

Additional observations from a re-analysis of the deposited data

Results flagged for a closer look

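In 24 checks of Pomc and Cga over the 12 labelled groups, 2 arrays stood apart from the other 4 of their group by Dixon's test, where chance flags about 1 check in 20. Pomc stood apart in R-tg replicate 3 at 0.75 mg/kg/d (7.19, others 6.74 to 6.78) and Cga in Q-tg replicate 1 at 0.85 (7.10, others 6.46 to 6.64). Both are Gh-high arrays. In the R-tg group at 0.75 the other Gh-high array, replicate 2, had the highest Pomc of the remaining 4 at 6.78. Gh was not checked in this way, since its values chose the sets.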

How the results depend on the processing

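The count of 2 rows for Gh-high against Gh-low stayed within 1.5 times in 16 of 21 alternatives. With 1 labelled genotype alone (15 arrays each) it was 1 in Q-tg and 0 in KO, R-tg and WT. At an unadjusted limma p under 0.05 there were 1335 rows in KO, 592 in R-tg and 551 in WT. The cause of these lower counts was not tested. With array weights the count was 5, the 2 genes with Tshb, Sharpin (0.09) and Psmd8 (0.07), and the cause was not tested. Leaving out each of the 60 arrays gave 2 to 3 rows, with log2 differences of 0.33 to 0.36 for Pomc and 0.47 to 0.54 for Cga, both past the test each time. With the replicate number as a block, Tshb passed too (adjusted p = 0.0148), and Pomc and Cga kept their calls; the block changed no other call. The slope within the Gh-high arrays gave 1 row with the lower quartile as covariate in place of 0. Within the Gh-low arrays it gave 64 in place of 29 without the highest and lowest Gh array (20 shared), 228 with the lower quartile as covariate, and, in fits added after seeing the data, 8216 without the 2 arrays above 8 and 3 with that covariate as well. Differences of list members without WT replicate 2 at 0.75 were also added after seeing the data. Dim rows limit what can be said of Prl, Fshb and Tshb, and the pools do not show which fetuses of a litter carried the signal.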
